A study of Mus musculus with 52 samples.

Results

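The regions described here are enhancers of epiblast-like cells (EpiLCs) that overlapped no listed enhancer of mouse embryonic stem cells (mESCs). They also lay far from any gene of the deposited gene set. Their activity in mESCs was not examined. An EpiLC enhancer was counted when it was 10 kb long or less, shared no base with an mESC enhancer, had its centre outside every gene interval of up to 3.2 Mb, and had its centre over 50 kb from the nearest transcription start site (TSS) of that gene set. Of 16576 EpiLC enhancers, 2338 (14.1%) met these conditions. The length limit removed 228 enhancers, overlap with an mESC enhancer 4112, a centre inside a gene 5635 and the distance to a TSS 4263. Enhancers just inside the distance limit lay 50.016 kb and 50.018 kb from a TSS (4933433H22Rik and Acyp2), and one just outside lay 49.927 kb from that of Atp6v0d2. The longest member spanned 9901 bp, and 2 enhancers that met every other condition were too long, the shorter of them at 10525 bp.

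The study behind these regions profiled mouse cells by chromatin immunoprecipitation sequencing in 52 libraries, 43 from mESCs and 9 from EpiLCs, in 34 groups of cell type, genotype and antibody. All cells had a C57BL6/129Sv background, the mESCs were grown without feeders in naive conditions, and EpiLCs came from them by 48 hours of differentiation. Genotypes in EpiLCs were the control ABE, SUZ12KO, which lacks a Polycomb subunit, and pK27R, in which all histone H3 is mutated at lysine 27. The mESC libraries added cK27R, mutated in canonical H3 only, and, for immunoprecipitation of H3.3, wild-type cells, cells without H3.3, and clones without it that had wild-type (pK27WT) or K27R histone added back. The mutants were represented by clones. The 3 deposited tables hold positions only, with 0 columns of signal per library, so the genotypes were not compared here and no statistical test was possible. The enhancers were taken by the authors from earlier publications and moved to the mm10 genome. Because the lists come from cells of those publications, the genotypes above do not apply to them.

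Enhancers are stretches of DNA that bind transcription factors and raise transcription of genes on the same chromosome, sometimes over long distances. Active enhancers carry acetylation of histone H3 at lysine 27, monomethylation at lysine 4 and the acetyltransferase p300, and those were the marks that defined the EpiLC set. EpiLCs are a model of the epiblast just after implantation. When naive stem cells turn into them, factors such as OTX2, POU3F1 (OCT6) and ZIC2 join the POU factor OCT4 and many enhancers are exchanged. Much of the territory between genes consists of transposable elements, some of which carry promoters of their own.

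Among these enhancers, 2 kinds of sequence are shown: sequence unlike that of any other member, and sequence that many members have in common. To show the first kind, the central 300 bases of the 4 members with the most different motifs of a 17-motif panel are printed 5′ to 3′ on the plus strand of mm10, with panel motifs on either strand in capitals. They are chr8:8258726-8259025, 402 kb from the TSS of Efnb2 (a membrane-bound ligand of Eph receptors), chr9:32645501-32645800, 50.4 kb from that of Ets1 (an ETS transcription factor), chr10:110113464-110113763, 113 kb from that of Nav3 (neuron navigator), and chr3:52386201-52386500, 118 kb from that of Foxo1 (a forkhead factor).
Efnb2 side: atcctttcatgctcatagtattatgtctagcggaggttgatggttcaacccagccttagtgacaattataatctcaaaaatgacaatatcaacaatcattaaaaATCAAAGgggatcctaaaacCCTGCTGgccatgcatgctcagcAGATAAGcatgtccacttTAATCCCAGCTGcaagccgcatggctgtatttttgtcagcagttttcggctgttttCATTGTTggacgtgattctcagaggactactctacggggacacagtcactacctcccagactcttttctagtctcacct
Ets1 side: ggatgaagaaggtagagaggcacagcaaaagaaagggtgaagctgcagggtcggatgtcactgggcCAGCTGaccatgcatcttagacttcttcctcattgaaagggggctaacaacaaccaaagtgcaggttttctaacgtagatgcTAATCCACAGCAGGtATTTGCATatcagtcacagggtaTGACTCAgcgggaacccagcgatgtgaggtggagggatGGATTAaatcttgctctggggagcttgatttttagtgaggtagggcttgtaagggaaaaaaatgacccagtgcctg
Nav3 side: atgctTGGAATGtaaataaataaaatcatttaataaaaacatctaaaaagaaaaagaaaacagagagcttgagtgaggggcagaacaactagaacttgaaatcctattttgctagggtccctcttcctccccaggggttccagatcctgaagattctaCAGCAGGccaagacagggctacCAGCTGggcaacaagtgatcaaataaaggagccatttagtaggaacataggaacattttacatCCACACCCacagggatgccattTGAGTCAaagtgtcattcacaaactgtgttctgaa
Foxo1 side: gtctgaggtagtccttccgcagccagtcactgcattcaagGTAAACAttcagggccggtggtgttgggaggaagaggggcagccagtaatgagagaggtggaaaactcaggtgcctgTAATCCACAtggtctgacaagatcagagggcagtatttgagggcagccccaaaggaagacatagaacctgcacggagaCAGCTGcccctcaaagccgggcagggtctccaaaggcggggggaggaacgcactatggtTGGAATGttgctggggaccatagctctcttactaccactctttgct

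The Efnb2 and Ets1 windows each held 6 different motifs, and the Nav3 and Foxo1 windows 5 each. An E-box stood in all 4, and a ZIC site in those beside Efnb2, Ets1 and Nav3. The Ets1 window also held a POU octamer 1 base from its ZIC site, and an AP-1 site. Windows this rich were the exception, since 921 of the 2338 members held no panel motif, 741 held 1 and 469 held 2.

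Members of the chains described further on are shown by chr16:30168201-30168500, between Hes1 and Cpn2, and chr7:70584114-70584413, 218 kb from the TSS of Nr2f2. The window with the most G and C among all members, chr17:4908136-4908435, lies 86.8 kb from the TSS of Arid1b, which encodes a subunit of the BAF chromatin remodelling complex.
Hes1 to Cpn2 chain: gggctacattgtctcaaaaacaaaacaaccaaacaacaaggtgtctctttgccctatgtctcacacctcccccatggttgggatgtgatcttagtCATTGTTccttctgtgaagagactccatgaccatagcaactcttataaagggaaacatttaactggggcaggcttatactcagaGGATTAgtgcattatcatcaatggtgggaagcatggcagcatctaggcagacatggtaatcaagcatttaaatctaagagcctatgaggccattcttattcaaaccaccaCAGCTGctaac
Nr2f2 chain: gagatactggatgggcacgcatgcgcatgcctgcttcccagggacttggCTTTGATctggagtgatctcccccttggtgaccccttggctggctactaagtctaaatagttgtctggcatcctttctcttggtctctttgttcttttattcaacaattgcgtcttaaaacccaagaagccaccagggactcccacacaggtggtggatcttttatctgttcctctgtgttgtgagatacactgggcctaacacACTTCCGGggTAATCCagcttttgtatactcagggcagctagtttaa
Arid1b side: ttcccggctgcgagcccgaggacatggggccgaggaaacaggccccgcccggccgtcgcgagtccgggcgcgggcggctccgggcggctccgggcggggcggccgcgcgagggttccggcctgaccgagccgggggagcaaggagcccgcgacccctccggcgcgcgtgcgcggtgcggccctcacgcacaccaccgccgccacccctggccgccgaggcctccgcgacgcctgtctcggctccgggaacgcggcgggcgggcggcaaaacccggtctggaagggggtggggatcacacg

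The Hes1 to Cpn2 window held a SOX site, an OTX site and an E-box, and the Nr2f2 window a TCF/LEF site, an OTX site and an ETS site. The Arid1b window was 79.7% G and C and contained no soft-masked base and no panel motif. It too was unlike any other member.

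The second kind is shown by the sequence that the largest group of alike members shared. A 30-base run stood in 318 of its 380 members. It is printed here in the orientation that holds the letters GCCATCTT (capitals) near its end. These letters are the core of the site of the factor YY1. For the second and the third largest groups the member with the most relatives is given: chr3:22412039-22412338, 161 kb from the TSS of Rprl2, and chr6:9656139-9656438, 706 kb from that of Nxph1.
Largest family, shared run: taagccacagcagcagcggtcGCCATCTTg
The second family: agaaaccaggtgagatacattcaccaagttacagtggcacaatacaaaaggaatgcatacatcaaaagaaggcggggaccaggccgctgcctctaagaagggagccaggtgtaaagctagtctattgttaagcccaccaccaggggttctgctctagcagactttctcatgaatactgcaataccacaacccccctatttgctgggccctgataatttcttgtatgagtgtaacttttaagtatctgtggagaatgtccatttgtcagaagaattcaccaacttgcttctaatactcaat
The third family: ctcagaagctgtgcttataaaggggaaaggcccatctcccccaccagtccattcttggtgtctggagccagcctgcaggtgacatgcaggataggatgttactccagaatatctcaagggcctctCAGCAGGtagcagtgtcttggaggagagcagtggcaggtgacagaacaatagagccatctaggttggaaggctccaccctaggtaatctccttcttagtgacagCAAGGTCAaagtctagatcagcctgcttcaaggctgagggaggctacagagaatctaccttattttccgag

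The window of the second family held no panel motif. That of the third family held a ZIC site and an ESRRB site, both in capitals.

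Repeated sequence made up a large share of these enhancers. Members were placed in the same family when their central 300 bases could be aligned at 80% identity or more over at least 150 bases, directly or through other members. In this way 866 members (37.0%) fell into 56 families and 1472 were unlike every other member. The largest family had 380 members (16.3%), the second 159 (6.80%) and the next 95 (4.06%), followed by families of 21, 20 and 16. The 3 largest families held 634 members, 73.2% of all that were in a family, and 25 families were pairs. The families were formed on these members alone, and other enhancers were then matched to them, which favours the members wherever they are set beside another class.

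The largest family was far rarer in the other sets of enhancers. It took up 122 of 3162 (3.86%, 95% Wilson interval 3.24% to 4.59%) EpiLC-only enhancers that lay between genes within 1 to 50 kb of a TSS, against 16.3% (14.8% to 17.8%) of the members. Among 820 EpiLC enhancers that were equally far from genes but overlapped an mESC enhancer, 1 matched it (0.122%, interval 0.0215% to 0.688%). None of the 8794 mESC enhancers did, which allows a share of up to 0.0341% (3 counts of 8794). The EpiLC and mESC lists came from different publications, and for neither do the sources used here give the treatment of reads that map to several places. The part of that treatment in the absence of this family from the mESC list was not tested. The second and the third families were found on both lists, in 88 and 59 mESC enhancers.

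The largest family was rich in G and C. Its windows, which are alike by construction, had a median GC content of 65.0% and a CpG observed-over-expected ratio of 0.578, against 46.3% and 0.170 in the other 1958 members. The YY1 core stood in 358 of the 380 windows (94.2%), against 30 of 1958 (1.53%) elsewhere. Outside the aligned windows, an open reading frame of at least 3000 bases without a stop codon lay within 8 kb of the centre of 311 members (81.8%), against 29 of 1958 (1.48%) other members. That frame had a median length of 3900 bases and lay between 3800 and 4000 bases in 288 of the 311. Of 309 such members that could be oriented against the family, 306 had the frame on the same strand and downstream, with its middle a median of 3.66 kb away. In 58 of 379 members the enhancer matched itself at 80% identity or more when shifted by 200 to 220 bases (median 212), as tandem units would. As background, full-length mouse LINE-1 retrotransposons have a GC-rich promoter of tandem units at their start, upstream of long open reading frames. No repeat annotation was used, so the family was not assigned a name.

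Members of this family lay farther from a TSS than the pooled other members, but so did those of the second and the third families. The largest family lay a median of 234 kb (95% interval 208 to 261 kb) from a TSS, against 122 kb (117 to 128 kb) for the other members. Among these others, the second family lay a median of 226 kb (169 to 282 kb) away and the third 169 kb (135 to 255 kb). Members of the largest family were spread over 20 chromosomes, and 44 of the 87 members on the X chromosome belonged to them. Only 48 (12.6%) had an mESC enhancer within 50 kb and 59 (15.5%) another EpiLC enhancer, against 718 (36.7%) and 1124 (57.4%) of the other members. An mESC enhancer was that close to 28 of the 159 members of the second family and 25 of the 95 of the third. The plot of distances to a TSS shows the share of the largest family by distance. It supplied 70 of the 863 members at 50 to 100 kb (8.11%), 132 of 817 at 100 to 250 kb (16.2%) and 107 of 383 at 250 to 500 kb (27.9%). At 500 to 1000 kb the share was lower, with 42 of 207 (20.3%, interval 15.4% to 26.3%), and beyond 1000 kb it was 29 of 68 (42.6%, 31.6% to 54.5%).

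**Figure D1:**
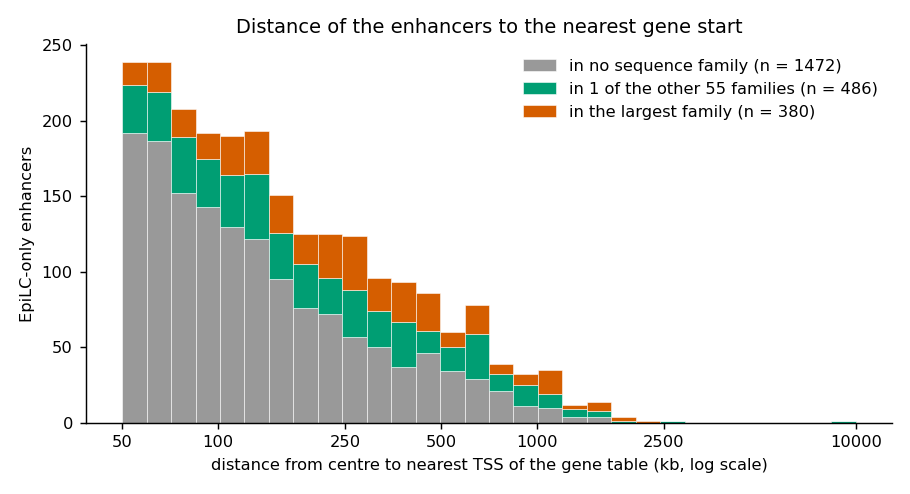
Number of EpiLC-only far enhancers (vertical axis) by distance in kb from the centre to the nearest TSS in the deposited gene set (log scale), stacked by sequence family. Grey bars are the 1472 members in no family, green bars the members of smaller families and orange bars the 380 members of the largest family, with 8.11% of the members at 50 to 100 kb, 27.9% at 250 to 500 kb, 20.3% at 500 to 1000 kb and 42.6% beyond.

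The other families had different letters. In the second family the GC content was low (median 41.7%), and a FOX site stood in 49 of 159 windows (30.8%) and a FOXH1 site in 34 (21.4%). In the third family a ZIC site stood in 65 of 95 windows (68.4%, interval 58.5% to 76.9%), an E-box in 33 (34.7%) and an ESRRB site in 14 (14.7%). The fourth family, with 21 members, held a ZIC site in 14. As the windows of a family are alike by construction, a motif count within a family is a count of similar sequences.

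Soft-masking, the lower-case marking of repeats in the reference genome, gave a view that did not depend on the families. At least 90% of the central window was soft-masked in 512 members (21.9%, interval 20.3% to 23.6%). The share was 7.84% in EpiLC-only enhancers nearer to genes, 1.59% in the far ones shared with mESCs and 0.158% in mESC-only far enhancers. Without the largest family it was 6.79% (133 of 1958). Windows centred 5 kb to either side of the members were soft-masked to this degree in 18.5% of 4490 cases, and in 10.1% of the 3731 beside members outside the largest family. At the other end, 683 members (29.2%) were soft-masked over less than 10% of the window.

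Base composition changed at the centre of the members. Outside the largest family the mean GC content was 46.4% just left of the centre and 41.9% at 4.9 kb to the left, while the soft-masked share was 30.9% and 33.3%. In the largest family, GC rose from 39.7% at that distance to 64.3%, and soft-masking from 70.6% to 99.7%. ZIC sites, plotted with both, reached 0.740 per kb at the centre outside the largest family, against 0.258 per kb at 4.9 kb to the left and 0.215 at 4.9 kb to the right.

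**Figure D2:**
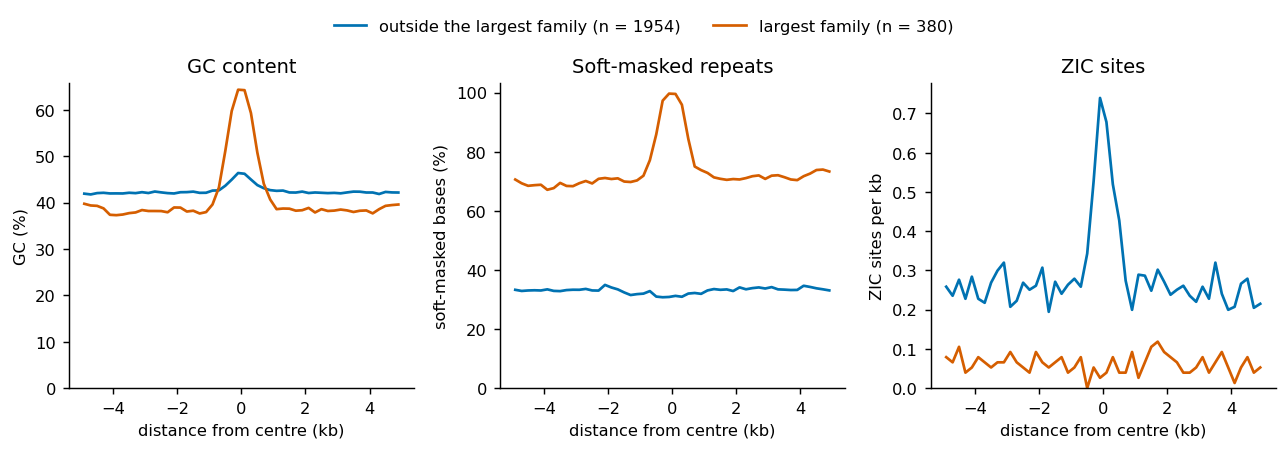
Mean GC content (%), soft-masked bases (%) and ZIC sites per kb (vertical axes) in 200-base steps by distance from the enhancer centre in kb, for 1954 members outside the largest family (blue) and 380 in it (orange). GC peaks at the centre in both groups, soft-masking only in the largest family, and ZIC sites only outside it.

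ZIC and E-box letters were the most frequent of the panel. ZIC factors are zinc finger proteins of the epiblast and neural plate, and E-boxes are bound by basic helix-loop-helix factors. The ZIC letters CAGCAGG stood in 390 of the 1958 windows outside the largest family (19.9%, interval 18.2% to 21.7%), and in 16.9% of all members. The share was 14.7% of all 16348 EpiLC enhancers of 10 kb or less, 16.7% of EpiLC-only enhancers nearer to genes, 10.8% (9.23% to 12.7%) of 1265 mESC-only far enhancers, and 6.22% (5.49% to 7.04%) of 3731 side windows. The intervals of the members and of the last 2 sets do not overlap. The intervals cover counting error only, count alike repeat copies as separate windows and are no test. Of the 390 windows, 65 were in the third family and 14 in the fourth. Among windows with under 10% soft-masking the shares were 19.0% in members, 9.75% in mESC-only far enhancers and 8.55% in side windows. The E-box CAGCTG stood in 392 (20.02%, 18.3% to 21.9%) of the 1958 windows outside the largest family, and in 18.05% of all members. Its share was 20.4% (19.0% to 21.8%) in EpiLC-only enhancers nearer to genes, 18.05% in far ones shared with mESCs and 18.4% in all EpiLC enhancers. It was lower in mESC-only far enhancers, at 14.2% (12.3% to 16.2%), and in side windows, at 11.5% (10.5% to 12.6%). With under 10% soft-masking the E-box stood in 26.5% of members, 16.8% of mESC-only far enhancers and 14.6% of side windows. GC content differed between these sets, with medians of 46.3% in members outside the largest family, 43.7% in mESC-only far enhancers and 42.0% in their side windows, and its part in the motif shares was not tested.

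Motifs of the mESC pluripotency factors SOX2, OCT4 and ESRRB were rarer in the members than in mESC-only far enhancers. The 2 lists came from different publications and were cut differently, with median lengths of 1400 bp outside the largest family and 607 bp in mESC-only far enhancers. How the mESC enhancers were called is not stated here. If binding of these factors entered that call, their motifs would be frequent on the mESC list by construction. The shares therefore describe the 2 lists and not the 2 cell types. The part of list definition and region length in any motif share set between the 2 lists was not tested. The SOX letters AACAATG stood in 5.26% (4.36% to 6.34%) of windows outside the largest family against 13.5% (11.7% to 15.5%) of mESC-only far windows. The POU octamer ATGCAAAT stood in 4.44% against 9.41%, and the composite TGTNATGCA, which shares the letters ATGCA with the octamer, in 1.23% against 4.66%. The letters CAAGGTCA of ESRRB, an orphan nuclear receptor of naive cells, stood in 2.81% against 6.88%. In all EpiLC enhancers the shares were 4.95% for SOX, 3.41% for the octamer, 1.12% for the composite and 2.75% for ESRRB, near those of the members. Against the side windows the octamer was more frequent in members (4.44% against 2.39%) and the SOX letters were not (5.26% against 5.92%).

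The remaining motifs of the panel stood in 12.5% or less of the windows outside the largest family. The OTX letters GGATTA stood in 12.5% of windows outside the largest family, 11.9% of mESC-only far windows, 12.2% of side windows and 11.9% of all EpiLC enhancers. AP-1 (TGA, any base, then TCA, for FOS and JUN) stood in 10.5% and in 9.07% of all EpiLC enhancers. FOXH1 (AATNCACA, a Nodal signalling factor) stood in 8.07% and 6.10%, FOX (TGTTTAC, forkhead factors) in 7.81% and 5.56%, and TEAD (CATTCCA) in 6.74% and 4.89%. All of these were slightly more frequent in members outside the largest family than in all EpiLC enhancers. The largest family held none of these motifs and was left out on the member side only, though 700 EpiLC enhancers matched it. Over all members OTX (10.4%) and AP-1 (8.77%) were below all EpiLC enhancers, and FOXH1 (6.76%), FOX (6.54%) and TEAD (5.65%) above. Of the 153 FOX windows outside the largest family, 49 were in the second family. TCF/LEF (CTTTGAT, Wnt signalling) stood in 5.46% of windows outside the largest family and 4.23% of all EpiLC enhancers, the motif of GATA factors (AGATAAG) in 3.93% and 3.64%, GRHL (AACCNGTT, grainyhead-like factors) in 3.37% and 3.24%, and KLF (CCACACCC) in 3.01% and 3.23%. The CTCF core CNAGNGGGC stood in 1.89% against 3.85% of all EpiLC enhancers, and ETS (CCGGAAGT) in 0.562% against 1.33%. The YY1 core GCCATCTT, which was added after the largest family had been seen, stood in 16.6% of all members, 1.53% of those outside that family, 6.04% of all EpiLC enhancers and 1.50% of mESC-only far enhancers. Every motif was searched on both strands, motifs may share bases with each other, and a match marks letters, not binding.

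**Figure D3:**
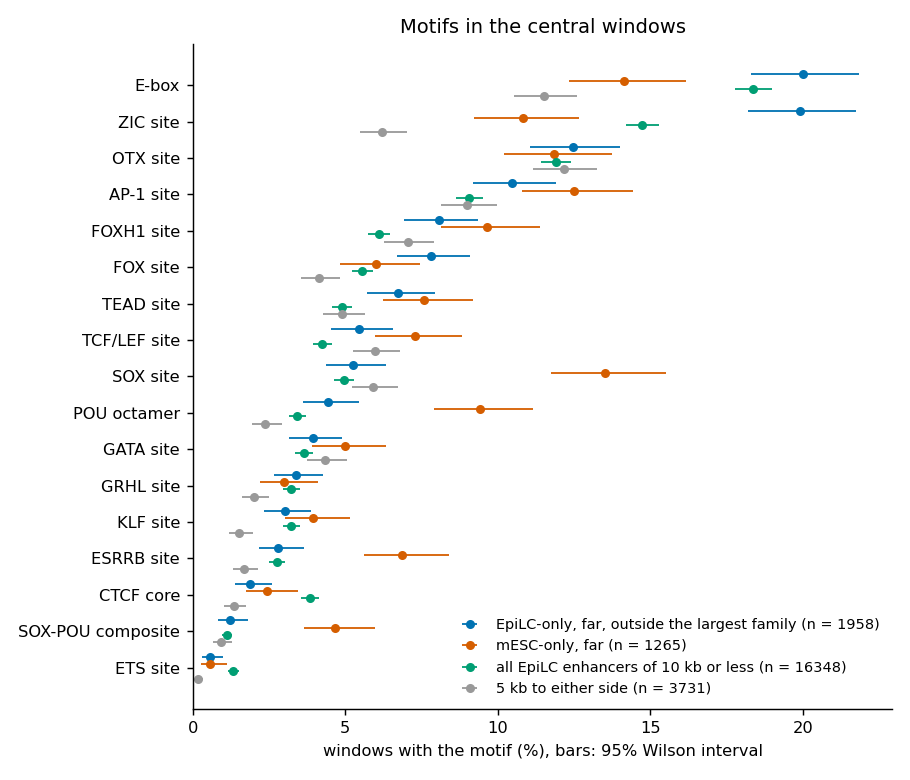
Share of central 300-base windows with each of 17 panel motifs (horizontal axis, %), with 95% Wilson intervals as bars, for members outside the largest family (blue), mESC-only far enhancers (orange), all EpiLC enhancers of 10 kb or less (green) and windows 5 kb to either side of members (grey). ZIC sites are at 19.9% in members and 10.8% in mESC-only far enhancers, and SOX sites at 5.26% and 13.5%. The mESC and EpiLC lists came from different publications and were cut differently.

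The members were shorter than other EpiLC enhancers. Their median length was 1325 bp (95% interval 1300 to 1375 bp), against 1600 bp for EpiLC-only enhancers nearer to genes, 1875 bp for far ones shared with mESCs and 1725 bp for all EpiLC enhancers of 10 kb or less. Members of the largest family were 1125 bp long and the others 1400 bp. Together they covered 3.91 Mb. Length was a multiple of 25 bp in 2237 members (95.7%), but in 40 of 1265 mESC-only far enhancers (3.16%), whose median was 607 bp. The 2 lists were thus cut differently, and lengths cannot be compared between them. The longest member, chr4:145510026-145519926, had its centre 0.092 kb from an annotated TSS of Zfp990, a zinc finger gene. The next were chr6:136463227-136473125 (9899 bp), 50.7 kb from the TSS of Atf7ip, and chr10:70835477-70845101 (9625 bp), 184 kb from that of D630013N20Rik. After them came chr13:66623727-66633176 (9450 bp), in the 2410141K09Rik region, and chrY:90717402-90726710 (9309 bp), 63.4 kb from that of Erdr1.

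How far these enhancers were from genes depended on the annotation. In the deposited gene set the median distance to a TSS was 134 kb (128 to 138 kb), with 863 members at 50 to 100 kb, 817 at 100 to 250 kb, 383 at 250 to 500 kb, 207 at 500 to 1000 kb and 68 farther. In GENCODE M21, which lists many more transcripts, the median distance was 28.8 kb (26.5 to 30.7 kb), and 1565 members (66.9%) had a TSS within 50 kb. A TSS of a protein-coding gene was within 50 kb of 288 members (12.3%), and the median distance to one was 125 kb. Outside the rule, the gene set also holds 97 unnamed intervals of 4.69 to 149 Mb, and 741 members (31.7%) had their centre inside one of them.

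The members' centres lay mostly outside GENCODE genes too. For 1895 (81.1%) no gene was annotated at the centre, 300 (12.8%) were in an intron, 16 in an exon and 127 (5.43%, interval 4.58% to 6.43%) within 1 kb of a TSS. That last share was 10.1% in EpiLC-only enhancers nearer to genes and 2.61% in mESC-only far enhancers. Of the 443 members with an annotation, 280 belonged to long non-coding RNA types, 122 to protein-coding genes and 35 to pseudogenes. The coding genes with most members inside were Gm20388 (6), Fgfr2 (4), a receptor of fibroblast growth factors, and Gm37240 (4). The deposited interval of a gene can be shorter than its GENCODE transcripts. Fgfr2, Nav3 and Asap2 are named in the gene set, and members lay in introns of their longer transcripts. The members at Asap2 also included a centre within 1 kb of an annotated TSS.

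Members were sparser than EpiLC-only enhancers elsewhere. Territory outside genes and over 50 kb from a TSS, called open territory here, came to 1056 Mb, 39.9% of the sequenced genome, and held 2.21 members per Mb. EpiLC-only enhancers had a density of 7.49 per Mb outside genes within 50 kb of a TSS and 5.51 per Mb inside genes. The mESC-only far enhancers had 1.20 per Mb of open territory. By chromosome, as the plot of densities shows, chromosomes 11 and 13 were highest, with 3.52 and 3.31 members per Mb, and 14 the lowest autosome, with 1.97. The X chromosome had 1.07 per Mb, of which 0.527 lay outside the largest family, and mESC-only far enhancers were also lower there (0.613 per Mb). The Y chromosome had 4 members, 0.0503 per Mb.

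**Figure D4:**
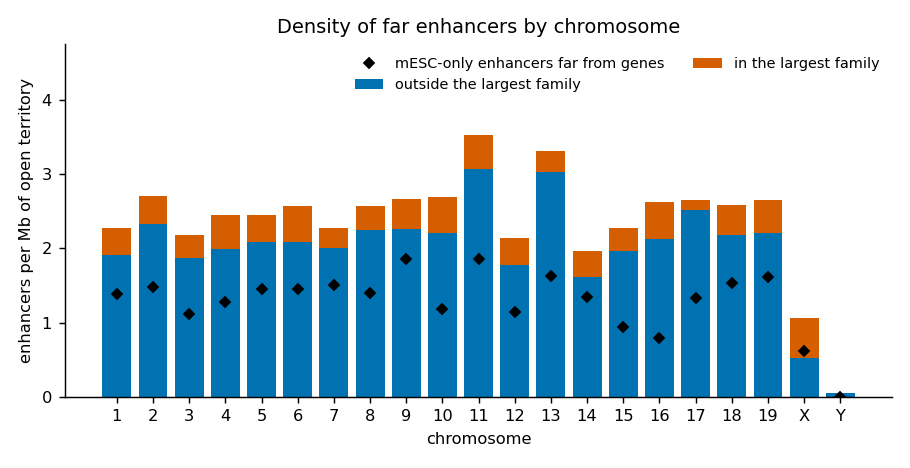
Enhancers per Mb of open territory (vertical axis) on each chromosome. Bars are the EpiLC-only far enhancers, outside the largest family in blue and in it in orange, and diamonds are mESC-only far enhancers; bars reach 3.52 on chromosome 11 and 1.07 on X.

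Open territory was filled unevenly. It consisted of 4226 separate stretches, of which 1253 (29.6%) held a member. The 232 stretches of 1 Mb or more made up 41.5% of the territory and held 550 members (23.5%), and 46 of them held none. The fullest was chr13:65328855-66063452, right of Zfp369, with 12 members in 0.735 Mb. The next was chr13:66491119-66855349, between 2410141K09Rik and Uqcrb, with 11 in 0.364 Mb, none of either stretch in the largest family. The stretch between Igfbp3 and Tns3 on chromosome 11 also held 11, in 1.17 Mb. Igfbp3 encodes a binding protein of insulin-like growth factors.

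The farthest members were mostly repeat copies. At the greatest distance, chrY:40029202-40029751 lay 9532 kb from a TSS of the gene set, was soft-masked throughout and belonged to a small family, but a GENCODE TSS lay 40.5 kb away. Next came chr2:98843727-98845201, 2526 kb from the TSS of Lrrc4c (a postsynaptic adhesion protein), in the second family. The members chr14:82083327-82084893 (2084 kb from Olfm4) and chr2:98307302-98308501 (1990 kb from Lrrc4c) belonged to the largest family, and chr6:75288077-75290226 (1818 kb from 1700065L07Rik) to the second.

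Many members stood alone, and the rest formed short chains. With a gap of at most 25 kb between edges, 683 members (29.2%, interval 27.4% to 31.1%) were in 297 chains and 1655 had no neighbour of their kind. Of the chains, 234 were pairs, 45 held 3 members, 12 held 4, 4 held 5 and 2 held 6. Within 50 kb of 1183 members (50.6%) lay another EpiLC enhancer of any class, and within 50 kb of 766 (32.8%) an mESC enhancer. The same shares over all EpiLC enhancers of 10 kb or less were 70.1% and 58.6%. The closest mESC enhancer had its centre 0.351 kb from that of chr2:61264952-61265251, near Gm13582, without overlap.

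The chain between Hes1 and Cpn2 and the chain beyond Nr2f2 consisted of sequence in no family. Hes1 encodes a repressor downstream of Notch, Cpn2 a subunit of a plasma carboxypeptidase and Nr2f2 the orphan nuclear receptor COUP-TFII. In chr16:30121777-30188776, 6 members of 1650, 1075, 575, 3825, 1300 and 1225 bp followed each other, the first 57.2 kb from the TSS of Hes1 and the last 79.4 kb from that of Cpn2. An mESC enhancer was within 50 kb of 3 of them. In chr7:70575152-70644801, 5 members of 1975, 1375, 1225, 3525 and 1250 bp lay 209, 218, 237, 258 and 277 kb from the TSS of Nr2f2. All 5 had an mESC enhancer within 50 kb, the nearest at 0.963 kb. The first pair lay at the TSS or in an exon of the non-coding gene Gm44812.

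The chain beside 2410141K09Rik held family members. Its region, chr13:66243527-66325926, had 6 members of 1275 to 7300 bp, all in or at the start of Gm26754, and 5 of them were in families. The nearest named TSS was that of 2410141K09Rik, 119 kb away, and the nearest mESC enhancer lay 389 kb away.

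The remaining named chains held no member of a sequence family. They were chr16:29761577-29823651 between Opa1 (mitochondrial fusion) and Gm1968 with 5 members, chr5:106753402-106784751 between Zfp644 and Hfm1 (meiotic recombination) with 5, chr3:149110827-149159501 between Adgrl2 (an adhesion receptor) and Gm1653 with 4, and chr16:20790677-20839151 between Thpo (thrombopoietin) and Teddm3 with 4. In the chain beside Zfp644 no mESC enhancer lay within 50 kb, and the nearest was 326 kb away.

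The nearest TSS belonged to 1431 different genes, and 928 of these were nearest to 1 member only. It was protein-coding for 1745 members (74.6%), and 41 members had a nearest TSS without a name. The gene with the most was 2410141K09Rik, with 11 members, 8 of them in families, at 76.1 to 199 kb. Nr2f2 followed with 8 members at 148 to 698 kb, none in a family and 6 with an mESC enhancer within 50 kb. Only 2 other EpiLC enhancers of 10 kb or less had Nr2f2 as their nearest gene. With 7 members each came Fut8 (a fucosyltransferase), Igfbp3, Wac and Zfp608, and in Wac 5 of the 7 were in families. With 6 each came 1700028P15Rik, 1810013L24Rik, Gm1968, Ido2 (tryptophan breakdown), Lrrc4c, Map3k7 (the kinase TAK1), Mat2b, Pcmtd1 and Rprl1, whose 6 members were all in families. At 1810013L24Rik all 6 had an mESC enhancer within 50 kb, and 6 more far EpiLC enhancers there overlapped one.

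Genes of the formative and primed epiblast had a share of the members near their share of all EpiLC enhancers. Of 26 listed genes in the table, 4 had any, with 10 members (0.428%, interval 0.232% to 0.786%), while these genes were nearest to 0.193% of the open territory and to 0.465% of all EpiLC enhancers of 10 kb or less. Sall1, a zinc finger repressor, had 4, at 99.6, 198, 201 and 226 kb and all with an mESC enhancer within 18.4 kb. Lef1, a Wnt effector, had 2 at 90.8 and 113 kb, and Grhl2, an epithelial regulator, 2 at 73.6 and 97.5 kb. No member was nearest to Fgf5, Otx2 or Pou3f1, the usual markers of the state, but how much open territory lay nearest to them is not given here. Genes of naive pluripotency had 7 members (0.299%, 0.145% to 0.617%) against 0.156% of the territory and 0.336% of all EpiLC enhancers: Tet2 (a methylcytosine dioxygenase) 3, 1 of them in the largest family, Klf5 2, Il6st 1 and Zfp42 1. General pluripotency genes had 2 (0.0855%, against 0.106% and 0.287%), Foxd3 and Zfp281.

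Neural regulators had 19 members (0.813%, 0.521% to 1.27%) at 8 of 29 genes, against 0.576% of the open territory and 0.410% of all EpiLC enhancers. Other far enhancers had similar or higher shares, 0.870% of the mESC-only ones and 1.34% of the EpiLC ones shared with mESCs. Nr2f2 held 8 of the 19 members, Irx3 3, and Sox1 and Sox11 2 each. Polycomb genes had 5 members, 3 at Jarid2 (56.8, 79.4 and 95.1 kb) and 2 at Aebp2 (234 and 235 kb), both accessory subunits of Polycomb repressive complex 2. That was 0.214% (0.0914% to 0.500%), against 0.0455% of the territory and 0.220% of all EpiLC enhancers. Genes of gastrulation had 2 members (0.0855%, against 0.165% of the territory and 0.0795% of all EpiLC enhancers), at Sox17 and Isl1, and both were in the largest family. Secreted signals had 7 (0.299%, against 0.364% and 0.171%): Inhba 3, Dkk2 2, Bmp3 1 and Fgf13 1, with 4 of the 7 in the largest family. Germ cell genes had 4 (Kit, Kitl, Prdm1 and Tfap2c), 0.171% against 0.0857% of the territory and 0.159% of all EpiLC enhancers. The Prdm1 member had its centre 0.438 kb from a GENCODE TSS of Prdm1 itself. Housekeeping genes had 1 (Ywhaz), 0.0428% against 0.00970% and 0.128%. Muscle and liver genes had 0, which allows a share of up to 0.128% (3 counts of 2338), against 0.0315% and 0.0306%.

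Gene deserts often flank adhesion genes. Cell adhesion and axon guidance genes had 35 members (1.50%, 1.08% to 2.07%) at 17 of 33 genes, against 0.495% of all EpiLC enhancers of 10 kb or less, but they were nearest to 2.91% of the open territory. They were also nearest to 1.66% of mESC-only far enhancers and 1.83% of far EpiLC enhancers shared with mESCs. Of the 35, 11 were in the largest family. Cdh20, a cadherin, had 4, all in families, Flrt2, a guidance receptor ligand, 4, also all in families and 3 in the largest, Cdh11 3 and Lrrtm1 3. Zinc finger genes named Zfp had 45 members (1.92%, 1.44% to 2.57%), against 0.873% of the territory and 2.05% of all EpiLC enhancers, 1 of them in the largest family. Cadherins and protocadherins had 27 (1.15%), against 2.06% of the territory and 0.385% of all EpiLC enhancers. With the nearest coding TSS of GENCODE in place of the deposited gene set, the adhesion list and the cadherins each had 2.31% of the members. Solute carriers had 34 (1.45%) against 1.03% and 1.76%, ribosomal protein genes 9 (0.385%) against 0.216% and 0.483%, vomeronasal receptors 10 (0.428%) against 0.440% and 0.367%, and olfactory receptors 7 (0.299%) against 0.254% and 0.471%. Other symbol families were small, among them Forkhead and Spalt factors 6 each, Sox factors 5, Iroquois factors and fibroblast growth factors 3 each, and POU and T-box factors 1 each.

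**Figure D5:**
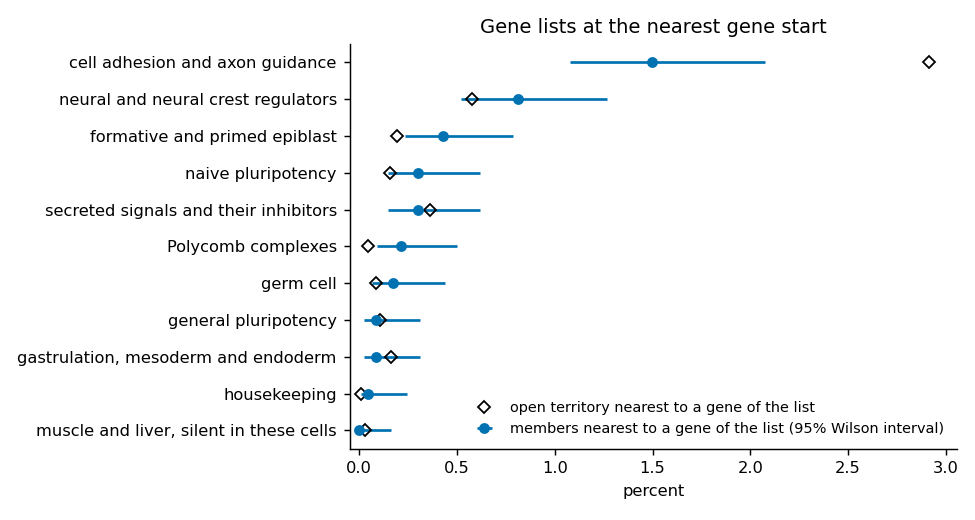
Share of the 2338 members whose nearest TSS belongs to a gene of each list (blue points, %, with 95% Wilson intervals) and share of open territory nearest to the same genes (open diamonds). Cell adhesion and axon guidance genes have 1.50% of members and 2.91% of the territory, formative epiblast genes 0.428% and 0.193%.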

How the data were processed

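Chromatin immunoprecipitation sequencing was done in 52 libraries, but the 3 tables used here hold positions (chromosome, start, end, strand) and 0 columns with a value per library, so depth and replicate error are unknown. The deposited tables are, per the series' design text, enhancers of published mESC and EpiLC studies moved to mm10 by the authors, and non-redundant UCSC genes. The builds mm10 and dm6 stand in the submitters' processing notes beside bedtools 2.29.2, Bowtie2 2.3.4.1 and Trimmomatic 0.38. The liftover tool, the peak calling and the treatment of reads that map to several places were not given in the sources used here.

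Starts were read as counting from 0 and are printed from 1. The TSS was the 5′ end of a gene interval. Of 24402 intervals, 23811 received a name: 12038 by exact match to RefSeq, 1406 and 1215 by exact match to GENCODE M21 genes and transcripts, and 9152 by a shared length of at least 0.8. Sequence came from GRCm38.p6, the assembly of mm10, with its soft-masking. Families came from blastn (BLAST+ 2.17.0, e-value 1e-10) and networkx 3.6.1, windows and motifs from pysam 0.24.0, medians and intervals from pandas 2.3.3 and scipy 1.17.1, in Python 3.11.15. Medians carry order-statistic 95% intervals and shares Wilson 95% intervals, both for counting error only. The rule and the motif search were checked on simulated data. No value of any library entered, so no tests were run.

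The members, the 11 gene lists, the 14 symbol families and the 17 motifs were chosen with earlier results of these data known; the sequence families and the YY1 core were added after the sequences had been seen. Genes named are the 15 nearest to most members and up to 4 per list, with the 8 largest chains, the 5 farthest and the 5 longest members. Other coding genes, stretches of territory and the closest mESC enhancer were named after their values were seen. Windows printed are those with most distinct motifs, with highest GC, from 2 of the 3 largest chains and, chosen later, from families. Some genes and 1 chain that this rule names are not reported here. The windows of the farthest member, of the lowest GC and of the first chain are not printed.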

Additional observations from a re-analysis of the deposited data

How the results depend on the processing

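The number of members was 2199 with no mESC enhancer allowed within 5 kb, 2310 from the nearest edge, 1597 with all gene intervals and 2338 with starts counted from 1, but 777 with GENCODE TSSs and 1475 with a limit of 100 kb. With GENCODE TSSs the median length was 1250 bp, 22.7% of members had another within 25 kb and 26.5% an mESC enhancer within 50 kb. Without the largest family (chosen after seeing the data) these values were 1400 bp, 33.2% and 36.7%, and the median distance to a TSS was 122 kb. A gap of 10 or 50 kb gave 20.2% or 38.6% of members in chains, and 20 or 100 kb gave 16.6% or 49.7% near an mESC enhancer. Median GC was 46.0% over whole regions, 47.4% over 500 bases, 47.2% over bases not soft-masked (1768 members) and 46.3% without the largest family. A GENCODE TSS lay within 5 kb of 14.5% and within 500 bp of 3.55% of members.

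Over 500 bases, over whole regions and outside soft-masked repeats, ZIC sites stood in 24.3%, 43.2% and 11.4% of members, E-boxes in 27.9%, 51.0% and 13.6%, and the POU octamer in 6.20%, 14.6% and 2.78%; SOX sites stood in 7.19% and 21.9% over the longer windows. Without the largest family ZIC sites stood in 19.9% and E-boxes in 20.02%. At 90% identity over 240 bases 531 members were in families, at 70% over 150 bases 946, and the largest had 375 and 380 (both settings added later). Of 50 list and symbol family values with other ways of choosing the nearest gene, 10 left the interval of the main value. Counting either flanking gene, which can only raise a share, gave 2.91% for adhesion genes, 2.10% for cadherins, 3.46% for Zfp genes, 2.57% for solute carriers and 0.642% for olfactory receptors. The nearest GENCODE coding TSS gave 2.31% for adhesion genes and for cadherins, 0.684% for Sox, 0.299% for POU and 0.0428% for fibroblast growth factors. No value per library exists in the tables, so replicates could not be left out. No paired analysis was possible because the tables hold no value per library.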

Other observations

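The surroundings of the largest family held letters that its centres did not. In 200-base steps around its 380 members, the POU octamer stood at 0.842 per kb at 4.9 kb to the left and 0.789 per kb at 4.9 kb to the right, and at 0 in both steps beside the centre. Around the 1954 other members it stood at 0.0972 and 0.0896 per kb at those distances and at 0.187 and 0.138 per kb beside the centre. Side windows of all members therefore held the octamer in 6.82% of 4490 cases, but in 2.39% of 3731 when those beside the largest family were left out. SOX letters behaved alike, at 9.06% and 5.92%.

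On the Y chromosome the 4 members were repeat-rich: 3 were soft-masked throughout the window, and 2 of these belonged to small families. The third, of 9309 bp, and its neighbour of 3597 bp (77.7% soft-masked) lay 63.4 and 56.7 kb from Erdr1. The longest stretches of open territory without a member were also on Y, at 8.73, 6.44 and 5.51 Mb of sequenced bases.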
